A study of Danio rerio with 18 samples.

Results

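The genes of Wnt signalling described here are 52 of the 15268 genes in an expression table of regenerating zebrafish heart. They were taken by symbol: every gene named as a wnt, fzd, sfrp or dkk family member, together with lrp5, lrp6, axin1, axin2, ctnnb1, lef1, tcf7, tcf7l2, wif1 and frzb. By role they comprise 20 Wnt ligands, 13 Frizzled receptors, 2 Lrp co-receptors, 11 secreted inhibitors and 6 intracellular components (β-catenin, Axin and Tcf/Lef). The fish belonged to the TAB line, a hybrid of the AB and Tubingen lines, and in all of them the tip of the ventricle had been cut off. Heart tissue was taken at 0, 6 or 9 days post amputation (dpa), and RNA was sequenced in 2 libraries per time point, 6 in all. The 0 dpa tissue was also amputated and stands for the day of surgery. The number of fish behind a library is not given in the sources used here. The replicates are called biological, but nothing names the animals, so p-values measure the spread between these libraries.

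Wnt ligands are secreted proteins that bind Frizzled receptors on the surface of the receiving cell. When an Lrp5 or Lrp6 co-receptor joins the complex, the Axin-based machinery that degrades β-catenin is inhibited, and β-catenin enters the nucleus and activates genes together with Tcf/Lef factors. Other Wnt ligands act through Frizzled without β-catenin and steer cell polarity and movement. Sfrp proteins, Frzb and Wif1 bind the ligands outside the cell, and Dkk1 proteins block the Lrp co-receptors. In the vertebrate heart the pathway is known for its roles in forming the heart field, the valves and the epicardium.

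Levels are given in FPKM, the fragments mapped to a gene scaled by its transcript length and by the mapped fragments of the library. Changes are log2 fold changes of FPKM + 1 from limma, so they understate the change of genes with low values. A gene was tested where its mean FPKM reached 3 in a compared group, and it was said to have risen or fallen with an unadjusted P under 0.05 and a change of at least 1.5-fold. FPKM keeps no read counts, so the depth behind a single value is unknown. The libraries held 9995 to 10683 genes at 1 FPKM or more, and all 7 cardiomyocyte markers in the table were above 0 in each of them (summed level 39011 to 91176 FPKM). The myoglobin gene mb was listed at 0 in both 9 dpa libraries and at 17856 FPKM or more in the others, so a value of 0 is written here as listed at 0. These are whole-tissue samples, in which fewer cells of a type and less RNA per cell cannot be told apart.

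The counts of Wnt genes that changed are given beside the share of all genes tested. Of the 52, 27 reached the level needed for a test in some comparison and 26 in each. At 6 dpa against 0 dpa, 2 of 26 changed: the inhibitor gene sfrp1a rose and the ligand gene wnt11r fell. That is 7.69% of the Wnt genes tested, beside 15.4% of all 9275 genes tested (7.86% rose and 7.51% fell). The same 2 of 26 changed in the same directions at 9 dpa against 0 dpa, beside 12.5% of 9015 genes (6.82% rose and 5.72% fell). Only the receptor gene fzd9b passed at 9 dpa against 6 dpa, where it fell, which is 3.85% of the 26 tested beside 3.41% of 9157 genes (1.99% rose and 1.42% fell). The comparisons with 0 dpa share their 0 dpa libraries. The median log2 fold change of the Wnt genes was -0.03 at 6 dpa and -0.12 at 9 dpa against 0 dpa, and -0.05 at 9 dpa against 6 dpa. Over all genes tested it was -0.0028 at 6 dpa and -0.03 at 9 dpa against 0 dpa, and -0.01 at 9 dpa against 6 dpa.

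**Figure D1:**
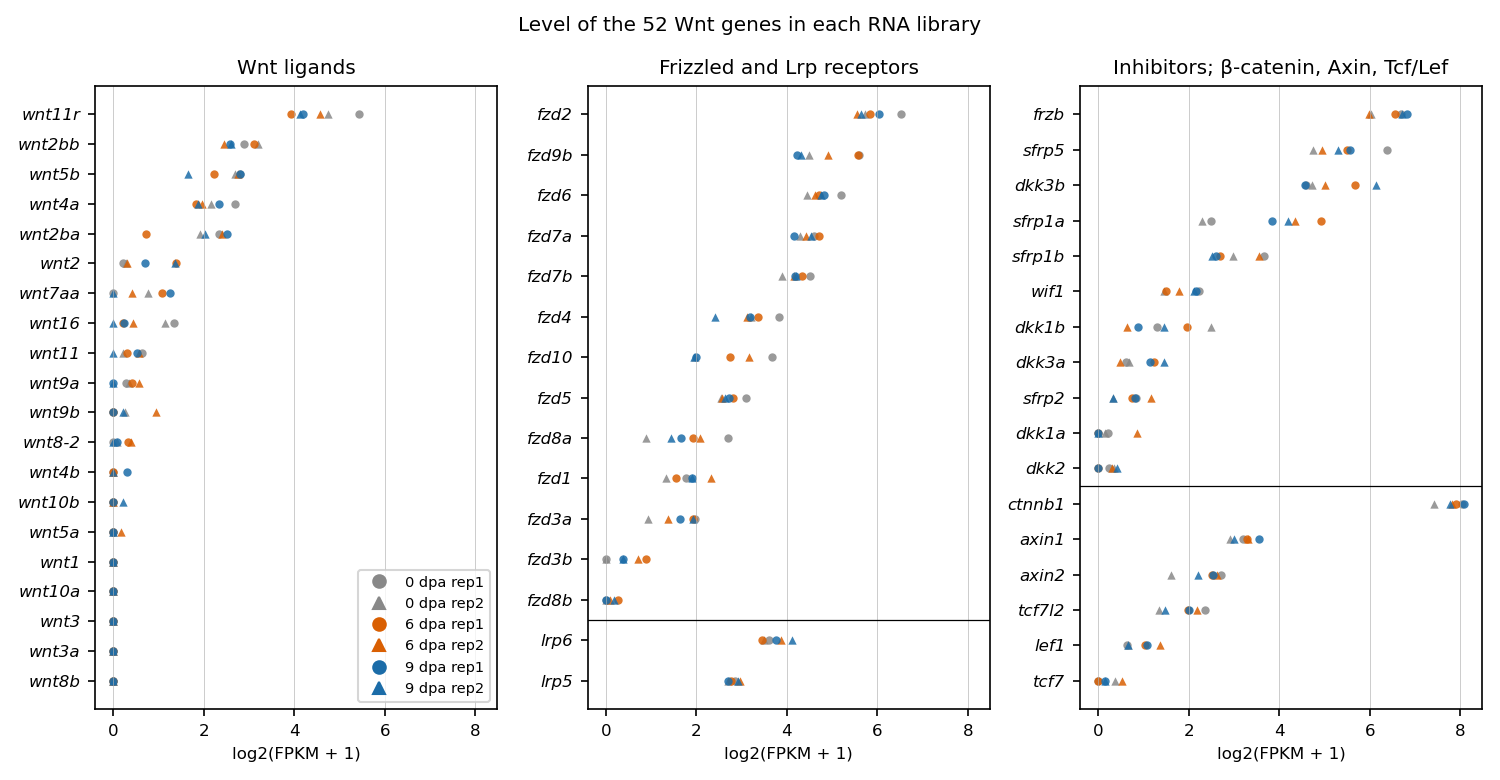
Level of each of the 52 Wnt genes in each of the 6 libraries, as log2(FPKM + 1), with genes ordered by mean level within a role; colours mark the time point and shapes the replicate. Only wnt11r stands above 10 FPKM in every library among the ligands, 5 ligand genes sit at 0 throughout, and ctnnb1 is the highest of all 52 genes.

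The number of genes that passed depended on the libraries used. At 6 dpa against 0 dpa it was 4 without replicate 2 of 0 dpa, when fzd2 and sfrp5 were called as well, and 1 without replicate 1 of 6 dpa or without either 9 dpa library, when sfrp1a alone was called. For 9 dpa against 0 dpa the number was 8 without replicate 2 of 0 dpa, 4 without replicate 1 of 9 dpa, and 1 without replicate 1 of 0 dpa or replicate 2 of 9 dpa. For 9 dpa against 6 dpa it was 2 without either 0 dpa library, 3 without replicate 2 of 6 dpa, and 0 without replicate 1 of 6 dpa or either 9 dpa library, where limma gave 0 Wnt genes at an unadjusted P under 0.05 as well. The gene sfrp1a was among those called at 6 and at 9 dpa against 0 dpa whichever library was left out.

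The expressed ligands were few. Of the 20 ligand genes, wnt11r was the only one above 10 FPKM in every library, and it made up 43.2% to 63.4% of the summed ligand FPKM of a library. Another 3, wnt2bb, wnt5b and wnt4a, were at or above 1 FPKM in all 6 libraries, and 4 (wnt2ba, wnt2, wnt7aa and wnt16) in only some of them. The genes wnt1, wnt3, wnt3a, wnt8b and wnt10a were listed at 0 in every library. The remaining 7, among them wnt5a, wnt9a and wnt10b, stayed below 1 FPKM throughout.

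The ligand gene wnt11r, whose Wnt11-type product is known mainly for β-catenin-independent signalling, had 42.3 and 25.7 FPKM at 0 dpa, 14.3 and 22.6 FPKM at 6 dpa and 17.2 and 16.4 FPKM at 9 dpa. Both 0 dpa libraries were above all 4 later ones, and the distance between the lower 0 dpa library and the higher 6 dpa library was small. It averaged 18.4 ± 5.86 FPKM at 6 dpa and 34.0 ± 11.7 FPKM at 0 dpa (SD, n = 2 each), a log2 fold change of -0.84 (SE 0.33, limma adjusted p = 0.287). At 9 dpa it averaged 16.8 ± 0.61 FPKM, a log2 fold change of -0.93 against 0 dpa (SE 0.33, limma adjusted p = 0.309). The call at 6 dpa was lost under 7 of the 14 other settings tried, among them the rescaling of each library without its haemoglobin genes (-0.52) and the fits without replicate 1 of 0 dpa (-0.49), without replicate 1 of 6 dpa (-0.53) and without either 9 dpa library (-0.84). The call at 9 dpa was lost without replicate 1 of 0 dpa (-0.58), without replicate 1 of 9 dpa (-0.97) and without replicate 2 of 9 dpa (-0.90). RefSeq lists wnt11r as a synonym of its wnt11, while the table also holds a separate gene called wnt11, which stayed below 1 FPKM. The name wnt11 is also listed there as a synonym of wnt11f2, so the identity of this low gene is unclear.

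Markers of other cells are given beside wnt11r. Of 8 endothelial and endocardial markers tested at 6 dpa against 0 dpa, 2 (pecam1 and tek) fell and 6 did not pass, beside 15.4% of all genes called, with a list median log2 fold change of -0.47. The list summed to 233 and 244 FPKM at 6 dpa, against 388 and 286 FPKM at 0 dpa. The same list summed at 9 dpa to 296 and 248 FPKM, and limma called 0 of its 8 genes, both by the 3 criteria and at an unadjusted P under 0.05. Of 7 cardiomyocyte markers tested at 6 dpa, 1 (myl7) fell and 6 did not pass, with a list median of -0.58. The cardiomyocyte list summed to 46616 and 39011 FPKM at 6 dpa, against 91176 and 45756 FPKM at 0 dpa, and at 9 dpa (66029 and 49255 FPKM, median -0.13) limma called 0 of its 7 genes, also at an unadjusted P under 0.05. No gene of either list was at 0 in any library. The part of these cells in the wnt11r values was not tested.

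The ligand gene wnt16, known in zebrafish for a role in specifying blood stem cells, had the clearest separation among the low ligands. It had 1.54 and 1.20 FPKM at 0 dpa, 0.162 and 0.350 FPKM at 6 dpa, and 0.177 FPKM and a listed 0 at 9 dpa. Both 0 dpa libraries were above the 4 later ones. Its difference in mean log2(FPKM + 1) was -0.92 at 6 dpa and -1.12 at 9 dpa against 0 dpa, but its levels were below the minimum for a test. It met the other criteria at 9 dpa with the minimum lowered to 1 FPKM, and at both time points with no minimum.

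The other expressed ligands did not pass. The gene wnt2bb, needed for liver formation in zebrafish, had 6.44 and 8.23 FPKM at 0 dpa, 7.66 and 4.43 FPKM at 6 dpa and 4.93 and 5.04 FPKM at 9 dpa, with log2 fold changes of -0.27 at 6 dpa and -0.47 at 9 dpa against 0 dpa. The gene wnt5b, known in zebrafish for directing cell movements at gastrulation, had 5.99 and 5.46 FPKM at 0 dpa, 3.68 and 5.70 FPKM at 6 dpa and 5.99 and 2.11 FPKM at 9 dpa. The 9 dpa libraries of wnt5b thus spanned the whole range of its values. All 5 ligand genes tested had a negative log2 fold change at 6 dpa (median -0.54) and 4 of 5 at 9 dpa (median -0.47), beside 4658 of 9275 and 4739 of 9015 of all genes tested. At 6 dpa wnt2ba and wnt4a were tested only through their higher 0 dpa mean, which favours a negative value. Among the ligands too low for a test, the 6 dpa differences in mean log2(FPKM + 1) ran from -0.92 (wnt16) to 0.60 (wnt2). Of those, only wnt16 had a negative difference. After the rescaling without haemoglobin, the 6 dpa values of wnt2bb and wnt5b were slightly above 0 (0.0082 and 0.02).

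The Frizzled receptors were expressed at higher levels than most ligands. Of the 13 genes, 9 were at or above 1 FPKM in all libraries and 5 at or above 10 FPKM (fzd2, fzd9b, fzd6, fzd7a and fzd7b). The gene fzd2 was the most abundant, at 27.7% to 38.5% of the summed Frizzled FPKM of a library. It had 91.1 and 51.9 FPKM at 0 dpa, 55.9 and 46.1 FPKM at 6 dpa and 64.4 and 48.8 FPKM at 9 dpa, so that replicate 1 of 0 dpa stood above the rest and replicate 2 within them. Against 0 dpa, the log2 fold change of fzd2 was -0.43 at 6 dpa and -0.29 at 9 dpa. Without replicate 1 of 0 dpa the 9 dpa value was 0.11. Next to it, fzd6 had 35.5 and 20.7 FPKM at 0 dpa, 25.2 and 23.7 FPKM at 6 dpa and 27.2 and 26.1 FPKM at 9 dpa, with log2 fold changes of -0.14 and -0.03 at 6 and 9 dpa against 0 dpa, which turned to 0.18 and 0.14 after the rescaling without haemoglobin.

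The receptor gene fzd9b had 47.2 and 21.5 FPKM at 0 dpa, 46.4 and 29.0 FPKM at 6 dpa and 17.7 and 19.0 FPKM at 9 dpa. Both 9 dpa libraries were below all 4 earlier ones, and replicate 2 of 0 dpa lay close above them. At 9 dpa it averaged 18.3 ± 0.93 FPKM and at 6 dpa 37.7 ± 12.3 FPKM (SD, n = 2 each), a log2 fold change of -0.96 at 9 dpa against 6 dpa (SE 0.41, limma adjusted p = 1.00). This call was lost under 5 of the 14 other settings, among them the fits without replicate 1 of 6 dpa (-0.63), without replicate 1 of 9 dpa (-0.91) and without replicate 2 of 9 dpa (-1.01). The log2 fold changes of fzd9b against 0 dpa, 0.19 at 6 dpa and -0.77 at 9 dpa, did not pass. The 6 dpa value turned negative without replicate 2 of 0 dpa (-0.35) or replicate 1 of 6 dpa (-0.14).

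At 6 dpa against 0 dpa limma called 0 of 9 Frizzled genes tested, by the 3 criteria and at an unadjusted P under 0.05. Their log2 fold changes lay between -0.43 and 0.21, and 15.4% of all genes tested met the 3 criteria. It likewise called 0 of 9 by either measure at 9 dpa against 0 dpa, where 12.5% of all genes tested met the 3 criteria. The values lay between -0.85 (fzd10) and -0.01 (fzd7b). All 9 were negative, beside 4739 of 9015 of all genes tested. Of them, fzd10 and fzd8a reached the minimum for this test only through their higher 0 dpa mean, which favours a negative value. The 4 Frizzled genes too low for a test were higher at 9 dpa. Their differences in mean log2(FPKM + 1) were 0.35 (fzd1), 0.32 (fzd3a), 0.37 (fzd3b) and 0.08 (fzd8b). The 9 genes tested share the 0 dpa libraries, and each was higher in replicate 1 of 0 dpa than in replicate 2. That difference in log2(FPKM + 1) was 0.32 (fzd7a) to 1.82 (fzd8a). At 9 dpa against 0 dpa the groups of fzd4 and fzd9b did not overlap. Over all Wnt genes, groups did not overlap for 5 of 26 at 6 dpa against 0 dpa (3 higher and 2 lower), beside 45.7% of all genes tested (22.9% higher and 22.8% lower). The count at 9 dpa against 0 dpa was 8 of 26 (3 higher and 5 lower), beside 41.1% (20.2% and 20.9%), and at 9 dpa against 6 dpa also 8 of 26 (3 higher and 5 lower), beside 36.5% (18.4% and 18.1%).

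The co-receptor genes lrp5 and lrp6 did not pass, although both 9 dpa libraries of lrp6 lay above both 0 dpa libraries. The gene lrp6 had 11.3 and 10.2 FPKM at 0 dpa, 9.93 and 13.6 FPKM at 6 dpa and 12.5 and 16.3 FPKM at 9 dpa, with log2 fold changes of 0.11 (95% interval -0.50 to 0.72) at 6 dpa and 0.39 (-0.23 to 1.00) at 9 dpa against 0 dpa. The gene lrp5 had 6.23 and 5.50 FPKM at 0 dpa, 5.77 and 6.75 FPKM at 6 dpa and 5.47 and 6.56 FPKM at 9 dpa, with log2 fold changes of 0.08 (-0.50 to 0.66) and 0.03 (-0.55 to 0.61). On the scale of FPKM + 1, a change of more than 2-fold lay outside these intervals, for lrp6 at 9 dpa only just (upper limit 0.995). That scale understates changes, so a change of just over 2-fold in FPKM was not excluded for lrp6 at 9 dpa.

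**Figure D2:**
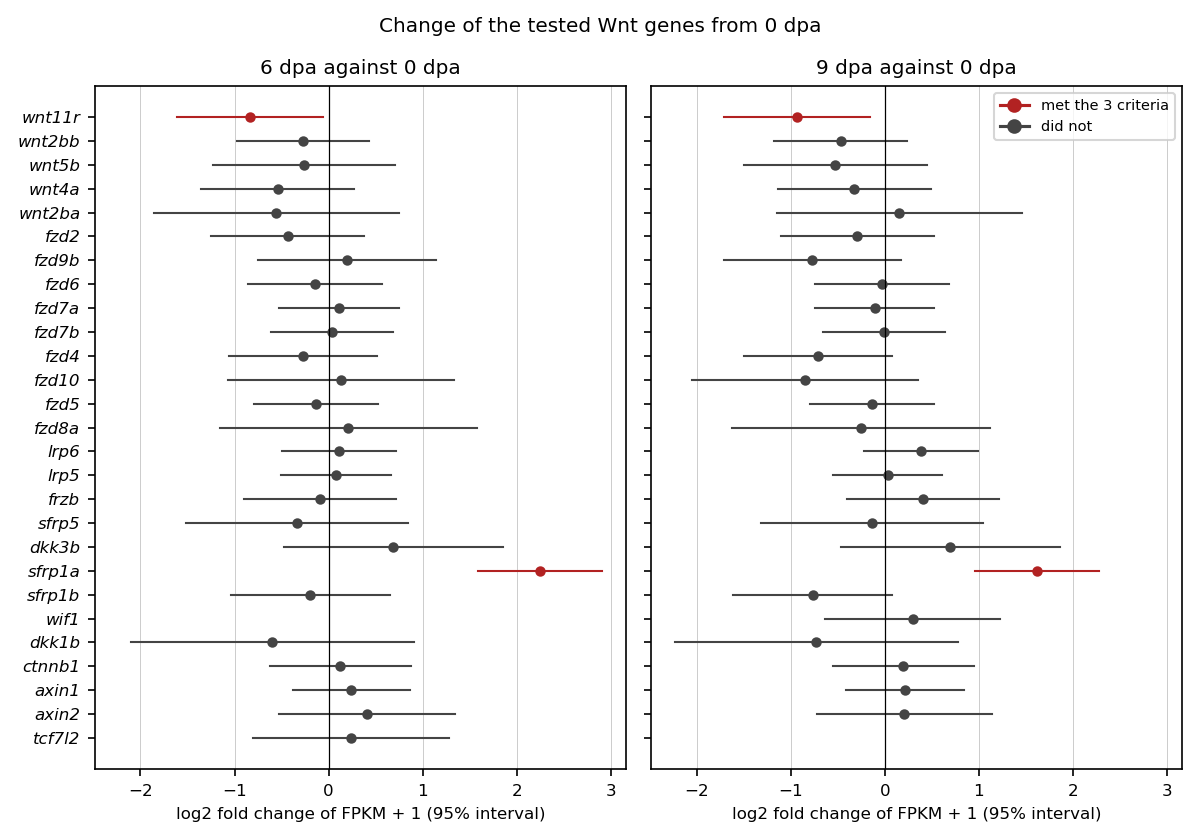
Log2 fold change of FPKM + 1 for the Wnt genes tested, at 6 dpa against 0 dpa (left) and at 9 dpa against 0 dpa (right), with 95% intervals from limma; red marks genes that met the 3 criteria. The gene sfrp1a stands apart at 2.24 and 1.62, wnt11r lies at -0.84 and -0.93, and every other interval includes 0.

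The largest change among the Wnt genes tested was that of a secreted inhibitor. The gene sfrp1a encodes a secreted Frizzled-related protein that binds Wnt ligands outside the cell. It had 4.60 and 3.92 FPKM at 0 dpa, 29.4 and 19.4 FPKM at 6 dpa and 13.2 and 17.3 FPKM at 9 dpa. The 3 time points did not overlap, and the 2 libraries of 0 dpa were close together. It averaged 24.4 ± 7.07 FPKM at 6 dpa, 15.3 ± 2.88 FPKM at 9 dpa and 4.26 ± 0.48 FPKM at 0 dpa (SD, n = 2 each). The log2 fold change was 2.24 at 6 dpa against 0 dpa (SE 0.28, limma adjusted p = 0.0275), or 4.74-fold on the scale of FPKM + 1. For 9 dpa against 0 dpa it was 1.62 (SE 0.28, limma adjusted p = 0.0778), or 3.08-fold. Between 9 dpa and 6 dpa it was -0.62, which did not pass. With an adjusted p under 0.05 in place of the unadjusted P, sfrp1a was the 1 Wnt gene called at 6 dpa, and limma called 0 of 26 at 9 dpa against 0 dpa (2 at an unadjusted P under 0.05). The share of all genes called in this way was 0.712% at 6 dpa and 0.366% at 9 dpa against 0 dpa. It was 0.0328% at 9 dpa against 6 dpa, where limma called 0 of 26 Wnt genes (1 at an unadjusted P under 0.05). Under the 14 other settings tried, sfrp1a met the 3 criteria in both comparisons, with log2 fold changes of 1.96 to 2.54 and adjusted p of 0.0289 to 0.123 at 6 dpa, and of 1.44 to 1.81 and 0.0573 to 0.499 at 9 dpa.

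Its duplicate sfrp1b gave no call. It had 11.7 and 6.86 FPKM at 0 dpa, 5.43 and 10.8 FPKM at 6 dpa and 5.05 and 4.68 FPKM at 9 dpa, with log2 fold changes of -0.20 at 6 dpa and -0.77 at 9 dpa against 0 dpa, neither of which passed. The log2 ratio of sfrp1a to sfrp1b within a library was taken on FPKM + 1. It was -1.18 and -0.68 at 0 dpa, 2.24 and 0.79 at 6 dpa, then 1.24 and 1.69 at 9 dpa. So sfrp1b was the more abundant of the pair in both 0 dpa libraries and sfrp1a in all 4 later ones. This pair was chosen after its values were seen, so the ratio is given without a test.

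**Figure D3:**
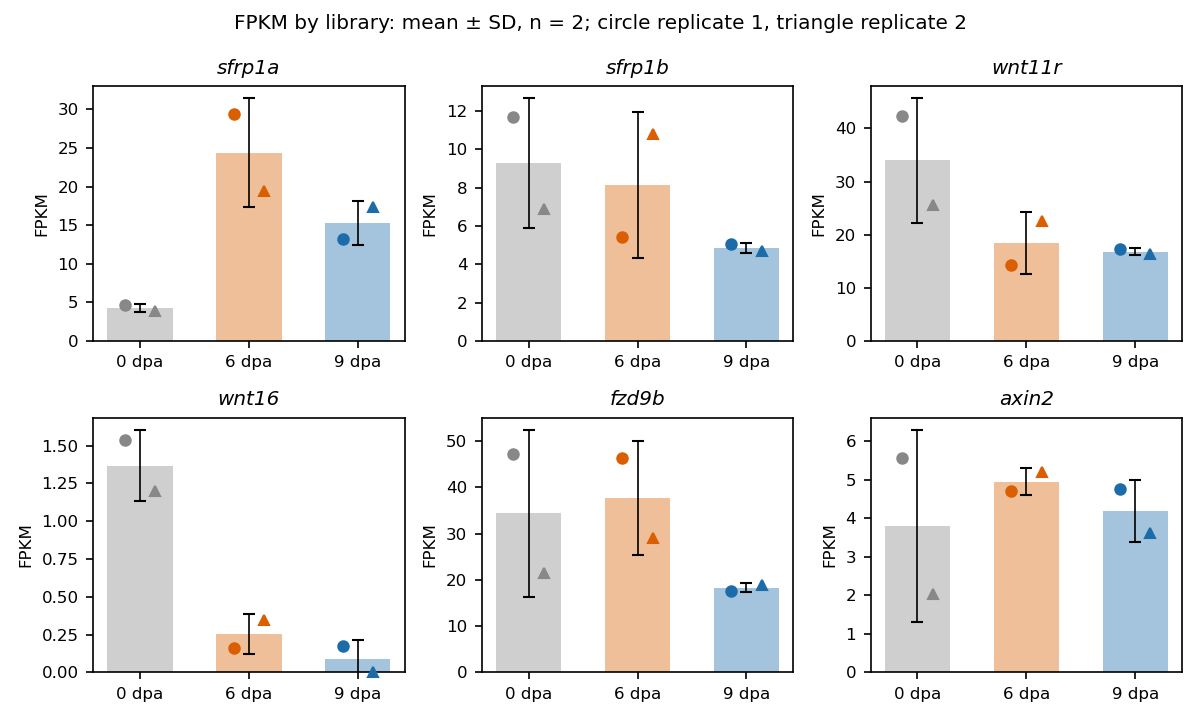
FPKM of 6 Wnt genes at 0, 6 and 9 dpa; points are libraries, and bars and whiskers the mean and SD of 2. The sfrp1a points at 6 and 9 dpa (13.2 to 29.4) all lie above those at 0 dpa (3.92 and 4.60), whereas the axin2 points at 6 and 9 dpa lie between those at 0 dpa.

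Markers of several cell types also rose after amputation. Over all genes tested, 7.86% rose at 6 dpa and 6.82% at 9 dpa against 0 dpa. Of 7 fibroblast markers tested, 6 (col1a1a, col1a2, dcn, fn1b, lum and postnb) rose at 6 dpa and at 9 dpa against 0 dpa. The other, pdgfra, did not pass, with log2 fold changes of 0.03 at 6 dpa and -0.08 at 9 dpa. The fibroblast list summed to 443 and 460 FPKM at 0 dpa, 2374 and 1171 FPKM at 6 dpa and 1203 and 2020 FPKM at 9 dpa. Within 6 dpa and within 9 dpa the library with the higher sum had more sfrp1a, and within 0 dpa it had less. Of 6 epicardial markers tested, 3 (tbx18, tcf21 and wt1a) rose at 6 dpa and 1 (tbx18) at 9 dpa, and their list summed to 411 and 476 FPKM at 0 dpa, 534 and 360 FPKM at 6 dpa and 392 and 605 FPKM at 9 dpa. The most abundant epicardial gene, krt18, had 270 and 280 FPKM at 0 dpa, 266 and 180 FPKM at 6 dpa and 230 and 339 FPKM at 9 dpa. It did not pass and weighs most in these sums. No gene of either list was at 0 in any library.

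Of 6 red blood cell markers other than haemoglobin, 5 rose at 6 dpa and at 9 dpa against 0 dpa (list medians 1.72 and 1.48), and their list summed to 953 and 514 FPKM at 0 dpa, 2291 and 2055 FPKM at 6 dpa and 2482 and 1446 FPKM at 9 dpa. Of 6 epidermal markers tested at 6 dpa, 3 (cldni, epcam and krt5) rose, with a list median of 2.07. These 3 were above 0 dpa in both 6 dpa libraries but far higher in replicate 2 than in replicate 1. In replicates 1 and 2 of 6 dpa, cldni had 2.90 and 38.4 FPKM, epcam 3.20 and 60.7 FPKM and krt5 12.04 and 187 FPKM. In the same libraries sfrp1a had 29.4 and 19.4 FPKM. The epidermal list summed to 387 and 619 FPKM at 6 dpa, against 260 and 121 FPKM at 0 dpa. Its most abundant gene, krt4, had 366 and 311 FPKM at 6 dpa. The epidermal genes epcam and evpla were at 0 in some library. Of 3 skeletal muscle markers tested at 6 dpa 2 rose (mylpfa and tnnt3b), although 4 of the 8 genes of that list were at 0 in some library. Of 10 cell cycle genes 3 rose at 6 dpa (aurkb, ccna2 and top2a) and 1 at 9 dpa (aurkb), and of 9 macrophage and neutrophil markers 1 (mpx) rose at 6 dpa. The genes cldni, epcam, krt5, mylpfa, tnnt3b and mpx reached the minimum for a test at 6 dpa but not at 0 dpa. For them the minimum favoured a rise, which limits what the epidermal and skeletal muscle counts show. At 9 dpa limma called 0 of 3 epidermal and 0 of 2 skeletal muscle markers tested, also at an unadjusted P under 0.05. The part of any of these cells in the sfrp1a values was not tested.

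The most abundant inhibitor was frzb, the zebrafish Sfrp3 gene, with 103 and 64.1 FPKM at 0 dpa, 92.7 and 62.4 FPKM at 6 dpa and 112 and 104 FPKM at 9 dpa. Both 9 dpa libraries lay above the others by a small margin, and the log2 fold changes of -0.09 at 6 dpa and 0.41 at 9 dpa against 0 dpa did not pass. The gene sfrp5 had 82.0 and 26.0 FPKM at 0 dpa, 44.4 and 29.9 FPKM at 6 dpa and 46.4 and 38.1 FPKM at 9 dpa. The 0 dpa libraries of sfrp5 were its highest and its lowest, and its log2 fold changes were -0.34 at 6 dpa and -0.14 at 9 dpa against 0 dpa. Without replicate 1 of 0 dpa these were 0.47 and 0.68, and without replicate 2 of 0 dpa they were -1.15 and -0.95. Together frzb and sfrp5 made up 74.6% to 91.6% of the summed FPKM of the sfrp genes and frzb, and sfrp1a 2.28% and 3.88% at 0 dpa, 17.0% and 15.7% at 6 dpa, then 7.47% and 10.5% at 9 dpa.

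The Dkk genes gave no call. The gene dkk3b, a divergent family member, had 23.1 and 25.3 FPKM at 0 dpa, 50.4 and 31.2 FPKM at 6 dpa and 22.8 and 69.3 FPKM at 9 dpa. Its 9 dpa libraries were the lowest and the highest of the 6, and its log2 fold changes were 0.69 at 6 dpa and 0.70 at 9 dpa against 0 dpa. Without replicate 2 of 9 dpa the 9 dpa value was -0.08, and without replicate 1 of 9 dpa it was 1.48. The Lrp antagonist gene dkk1b was between 0.542 and 4.62 FPKM, and dkk1a and dkk2 stayed below 1 FPKM in every library. Of the 6 inhibitor genes tested at 6 dpa against 0 dpa 1 rose and 5 did not pass, and of the 7 tested at 9 dpa 1 rose and 6 did not pass. That is 16.7% and 14.3%, close to the 15.4% and 12.5% of all genes called.

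Inside the cell, ctnnb1, which encodes β-catenin, was the most abundant of all 52 genes. It had 261 and 172 FPKM at 0 dpa, 238 and 223 FPKM at 6 dpa and 269 and 219 FPKM at 9 dpa, and every later library lay between the 0 dpa libraries or close above them. Its log2 fold changes were 0.12 (95% interval -0.62 to 0.87) at 6 dpa and 0.20 (-0.55 to 0.95) at 9 dpa against 0 dpa. The scaffold gene axin1 had 8.19 and 6.56 FPKM at 0 dpa, 8.82 and 8.91 FPKM at 6 dpa and 10.7 and 7.05 FPKM at 9 dpa, with log2 fold changes of 0.24 and 0.22 at 6 and 9 dpa.

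The gene axin2 is both a brake on β-catenin and one of its widely used target genes. It had 5.57 and 2.05 FPKM at 0 dpa, 4.70 and 5.19 FPKM at 6 dpa and 4.77 and 3.63 FPKM at 9 dpa. All 4 later libraries lay between the 0 dpa libraries. The log2 fold change was 0.41 (95% interval -0.52 to 1.34) at 6 dpa and 0.21 (-0.73 to 1.14) at 9 dpa against 0 dpa. Its sign turned on the 0 dpa library used: without replicate 1 of 0 dpa it was 0.96 at 6 dpa and met the criteria, and without replicate 2 of 0 dpa it was -0.15 at 6 dpa and -0.35 at 9 dpa. The nuclear factor genes among the 52 were low. The gene tcf7l2 lay between 1.54 and 4.10 FPKM, lef1 between 0.555 and 1.58 FPKM, and tcf7 below 1 FPKM in every library. Outside the 52, the related genes tcf7l1a and tcf7l1b were higher, between 10.7 and 18.0 FPKM and between 3.74 and 7.11 FPKM. Limma called 0 of the 4 intracellular genes tested at 6 dpa and 0 of 3 at 9 dpa against 0 dpa, also at an unadjusted P under 0.05. The share of all genes that met the 3 criteria was 15.4% and 12.5%.

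Among other genes of Wnt secretion and signalling at the cell surface, the R-spondins moved in opposite directions. R-spondins bind Lgr receptors and keep Frizzled receptors on the membrane, which strengthens Wnt signals. Of the 11 genes of this list tested at 6 dpa against 0 dpa, 2 rose (rspo3 and tdgf1), 2 fell (rspo1 and lgr4) and 7 did not pass. Of the 10 tested at 9 dpa, rspo3 rose, rspo1 and lgr4 fell and 7 did not pass. Those are 36.4% of the 11 tested at 6 dpa, beside 15.4% of all genes tested, and 30% of the 10 tested at 9 dpa, beside 12.5%. The list was chosen with earlier results of these data known, so these shares are given without a test. Among the genes called, rspo1 reached the minimum for a test only at 0 dpa, where it was higher. At 6 dpa tdgf1 reached it only there, where it was higher. For both genes the minimum favoured a change in the direction seen. The list's median log2 fold change was -0.07 at 6 dpa and 0.04 at 9 dpa.

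The gene rspo3 had 3.51 and 3.59 FPKM at 0 dpa, 15.4 and 12.1 FPKM at 6 dpa and 9.49 and 12.1 FPKM at 9 dpa, with all 4 later libraries above both 0 dpa libraries. Its log2 fold change was 1.69 at 6 dpa (SE 0.25, limma adjusted p = 0.0346) and 1.36 at 9 dpa (SE 0.25, limma adjusted p = 0.0894) against 0 dpa. The gene rspo1 had 5.95 and 6.66 FPKM at 0 dpa, 2.31 and 1.19 FPKM at 6 dpa and 0.744 and 1.48 FPKM at 9 dpa, with all later libraries below both 0 dpa libraries. Its log2 fold change was -1.44 at 6 dpa (SE 0.41, limma adjusted p = 0.159) and -1.81 at 9 dpa (SE 0.41, limma adjusted p = 0.151). Both genes met the criteria under all 14 other settings, with adjusted p at 6 dpa between 0.0388 and 0.208 for rspo3 and between 0.108 and 0.440 for rspo1, and at 9 dpa between 0.0690 and 0.532 for rspo3 and between 0.107 and 0.501 for rspo1. Their receptor gene lgr4 had 21.0 and 15.3 FPKM at 0 dpa, 12.5 and 9.70 FPKM at 6 dpa and 10.9 and 9.74 FPKM at 9 dpa, with log2 fold changes of -0.66 and -0.74. The lgr4 call at 6 dpa was lost under 8 of the 14 settings, among them the rescaling without haemoglobin (-0.34) and the fits without any 1 library other than replicate 2 of 0 dpa (-0.44 to -0.82), and that at 9 dpa under 5, the rescaling (-0.58) and the fits without replicate 1 of 0 dpa (-0.52), replicate 1 of 6 dpa (-0.74) or either 9 dpa library (-0.82 and -0.67). The gene tdgf1, a co-receptor known mainly for Nodal signalling, had 1.38 and 0.277 FPKM at 0 dpa and 4.87 and 2.93 FPKM at 6 dpa, a log2 fold change of 1.46 that became 1.01 and lost its call without replicate 2 of 0 dpa.

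Of 24 further intracellular genes of the pathway tested, 1 rose and 23 did not pass at 6 dpa, and the same held at 9 dpa against 0 dpa. That is 4.17% in both comparisons, beside 15.4% of all genes at 6 dpa and 12.5% at 9 dpa. The gene that rose was cby1, an antagonist of β-catenin, which had 2.85 and 2.08 FPKM at 0 dpa, 6.75 and 4.14 FPKM at 6 dpa and 4.20 and 7.30 FPKM at 9 dpa (log2 fold changes 0.87 and 0.93). Its call was lost at 6 dpa under 7 of the 14 other settings, among them the fits without replicate 2 of 0 dpa (0.71), replicate 1 of 6 dpa (0.58) or replicate 2 of 9 dpa (0.87), and at 9 dpa under 3 of 14, among them those without replicate 2 of 0 dpa (0.77) or replicate 2 of 9 dpa (0.60).

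Of 18 genes listed as targets of β-catenin, 7 were tested against 0 dpa. At 6 dpa 1 was called (14.3%, beside 15.4% of all genes) and at 9 dpa 2 were (28.6%, beside 12.5%). This list too was chosen with earlier results known, so its shares are given without a test. At 6 dpa ccnd2a, a cyclin gene, rose (11.0 and 17.5 FPKM at 0 dpa, 24.6 and 26.4 FPKM at 6 dpa, log2 fold change 0.83) and 6 did not pass. At 9 dpa mycb rose (55.1 and 65.3 FPKM at 0 dpa, 37.6 and 70.8 FPKM at 6 dpa, 117 and 103 FPKM at 9 dpa, log2 fold change 0.86), id3 fell (61.4 and 47.4 FPKM at 0 dpa, 39.9 and 36.3 FPKM at 6 dpa, 36.2 and 29.8 FPKM at 9 dpa, log2 fold change -0.70) and 5 did not pass. Against 6 dpa, mycb also rose at 9 dpa (log2 fold change 1.07), a call lost without replicate 1 of 6 dpa (0.62) or either 9 dpa library (0.97 and 1.16). The calls against 0 dpa were lost under 3 of 14 settings for ccnd2a, 5 for mycb and 7 for id3. Among the single libraries, these were ccnd2a without replicate 1 of 0 dpa (0.52) or either 6 dpa library (0.88 and 0.78), mycb without any 1 library of 0 or 9 dpa (0.74 to 0.98), and id3 without replicate 1 of 0 dpa (-0.52) or any 1 library of 6 or 9 dpa (-0.56 to -0.84). The targets sp5a and nkd1 were below 1 FPKM and between 1.45 and 2.37 FPKM.

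In the polarity and calcium branches, 2 of 11 genes tested fell at 6 dpa and 1 of 10 at 9 dpa against 0 dpa. That is 18.2% and 10% of those tested, close to the 15.4% and 12.5% of all genes called in these comparisons. The calcium-dependent kinase gene camk2d2 had 84.0 and 35.9 FPKM at 0 dpa, 11.3 and 15.3 FPKM at 6 dpa and 25.5 and 18.8 FPKM at 9 dpa, with log2 fold changes of -1.99 (limma adjusted p = 0.0833) and -1.29 (limma adjusted p = 0.274). At 9 dpa the call was lost without replicate 1 of 0 dpa (-0.69) or replicate 2 of 9 dpa (-1.08). The GTPase gene rhoab had 255 and 177 FPKM at 0 dpa, 111 and 77.0 FPKM at 6 dpa and 141 and 106 FPKM at 9 dpa. The log2 fold change of rhoab was -1.19 at 6 dpa, where the call was lost without replicate 2 of 6 dpa (-0.94), and -0.79 at 9 dpa, which did not pass.

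The 0 dpa libraries differed from each other more than the later pairs did, both in the Wnt genes and over all genes. Without regard to sign, the median difference in log2(FPKM + 1) at 0 dpa was 0.61 for the Wnt genes and 0.44 for all genes. It was 0.28 and 0.27 at 6 dpa, and 0.29 and 0.28 at 9 dpa. Of the 27 genes tested, 24 (88.9%) were higher in replicate 1 of 0 dpa than in replicate 2, beside 66.9% of the 9363 genes in the fit. With its sign, replicate 1 minus replicate 2, the median difference in log2(FPKM + 1) was 0.61 for the Wnt genes and 0.24 for all genes. At 6 dpa 14 of 27 (51.9%) were higher in replicate 1, beside 63.8% of all genes, with a median difference of 0.09 beside 0.13. At 9 dpa it was 18 of 27 (66.7%), close to the 65.9% of all genes, with a median difference of 0.09 beside 0.16. The same 0 dpa libraries differed in their markers: the cardiomyocyte list summed to 91176 FPKM in replicate 1 and 45756 FPKM in replicate 2, and the macrophage and neutrophil list to 181 and 751 FPKM. The part of these differences in the Wnt values was not tested.

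**Figure D4:**
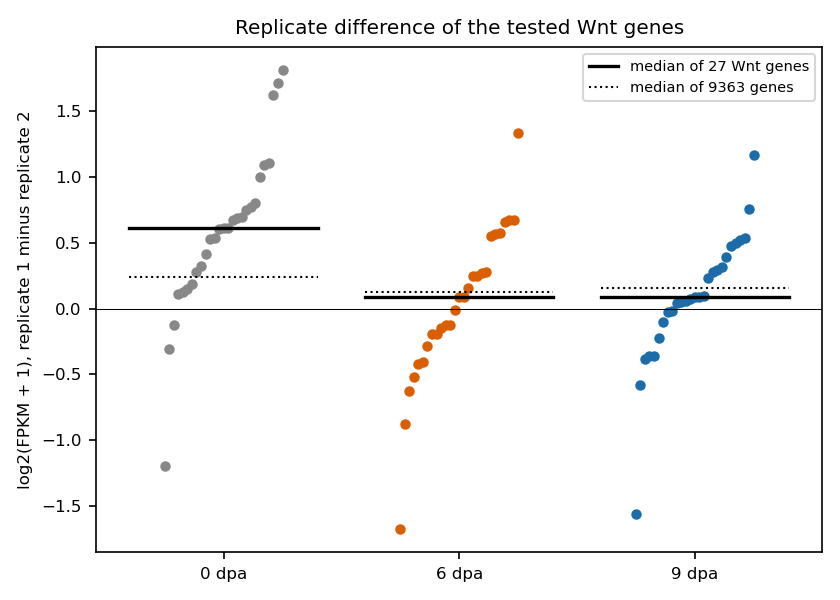
Difference in log2(FPKM + 1) between replicate 1 and replicate 2 at each time point, 1 point per Wnt gene tested (27), with solid lines for their median and dotted lines for the median of 9363 genes. At 0 dpa 24 of the 27 points lie above 0 around a median of 0.61, whereas the medians at 6 and 9 dpa are 0.09.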

How the data were processed

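Zebrafish heart RNA was sequenced in 6 libraries. The deposited FPKM values were made by the authors, who used STAR for alignment to danRer10 and Cufflinks for quantification. The versions of STAR and Cufflinks and the gene annotation are not given in the sources used here. The ChIP libraries of the series were not used here. FPKM of near-identical duplicate genes may be split by the quantification, and read counts were not recovered from the values.

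Values were transformed to log2(FPKM + 1) and fitted with limma 3.58.1 in R 4.3.3, with time point as the only term, a trend over expression and 3 residual degrees of freedom, over the 9363 genes with a mean of at least 3 FPKM at any time point. P-values were adjusted by Benjamini-Hochberg over all genes tested in a comparison. The authors' criteria were written for edgeR, which needs counts, so limma was used. Members and gene lists were chosen with earlier results of these data known. Given with all 6 values were members that met the criteria, the 3 most abundant of each role, and those above 1 FPKM whose groups did not overlap and differed by at least 1 in mean log2(FPKM + 1); sfrp1b was added after its values were seen, and genes of the other lists were given where they met the criteria. The genes sp5a, nkd1, tcf7l1a and tcf7l1b were also chosen after their values were seen. The genes krt4 and krt18 were given as the most abundant of their lists. Alternatives were a pseudocount of 0.1, a minimum of 1 FPKM or none, median-ratio scaling, rescaling without haemoglobin, a replicate term, no trend, the compared groups only, and leaving out each library. Where a library was left out, the lone library of its time point was taken to vary like the others. The fit was tested on simulated data. RefSeq (GRCz12tu) was used for names only, and 50 of 52 symbols occurred in it as current symbols, wnt11 among them, while 2 matched as synonyms. Figures were made with Python 3.11.15 and matplotlib 3.10.9.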

Additional observations from a re-analysis of the deposited data

How the results depend on the processing

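The number of Wnt genes called at 6 dpa against 0 dpa was 2 and became 4 with no FPKM minimum, when wnt16 and fzd3b were called as well, and 1 with the rescaling without haemoglobin, with the replicate block and with the compared groups only. At 9 dpa against 6 dpa it was 1 and became 0 in limma with no minimum (3 at an unadjusted P under 0.05) or no trend (0 at an unadjusted P under 0.05), 3 with the rescaling and 2 with the compared groups only. At 9 dpa against 0 dpa no such setting moved the 2 calls by over 1.5 times, and the replicate block gave 3. There wnt16 was called as well with a minimum of 1 FPKM and with no minimum. With single libraries left out the counts were 1 to 4, 1 to 8 and 0 to 3 at 6 against 0, 9 against 0 and 9 against 6 dpa.

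Rescaling without haemoglobin moved the median of all genes to 0.31, 0.13 and -0.17 in these comparisons and that of the Wnt genes to 0.36, 0.06 and -0.19, and split the 6 dpa calls over all genes into 1715 higher and 346 lower, where the main scale had 729 and 697. It turned the sign of wnt2bb (0.0082), wnt5b (0.015), fzd6 (0.18) and frzb (0.24) at 6 dpa and of fzd6 (0.14) and sfrp5 (0.034) at 9 dpa against 0 dpa. It also gave wnt11r -0.52 at 6 dpa, without a call. Median-ratio scaling split the 6 dpa calls into 686 higher and 938 lower. The cause of these shifts was not tested beyond the construction of each scale.

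Leaving out single libraries turned the sign of some genes that had not passed, with log2 fold changes over these ranges. For 6 dpa against 0 dpa they were -0.52 to 0.23 for fzd6, -0.43 to 0.24 for frzb, -1.15 to 0.47 for sfrp5, -0.35 to 0.74 for fzd9b, -0.18 to 0.42 for ctnnb1, -0.15 to 0.96 for axin2, -0.61 to 0.064 for wnt2bb, -0.10 to 0.32 for lrp6 and -0.018 to 0.18 for lrp5. For 9 dpa against 0 dpa they were -0.69 to 0.11 for fzd2, -0.40 to 0.35 for fzd6, -0.95 to 0.68 for sfrp5, -0.082 to 0.14 for lrp5, -0.10 to 0.50 for ctnnb1, -0.35 to 0.76 for axin2, -0.051 to 0.48 for axin1, -1.11 to 0.058 for wnt5b and -0.083 to 1.48 for dkk3b. For 9 dpa against 6 dpa they were -0.41 to 0.22 for wnt11r. Of 685 single-gene values under the alternatives, 585 kept their direction and call, 61 lost the call, 9 gained one and 30 changed sign, 24 of these with a library left out.

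The labels do not say whether replicate numbers mark pairs. Deviations of same-numbered libraries correlated at -0.08 (0 and 6 dpa), 0.09 (0 and 9 dpa) and 0.0052 (6 and 9 dpa) across 9363 genes, which are not independent replicates. A correlation across genes does not see a shift shared by all genes, so it cannot decide on pairing. Replicate 1 was the higher for 66.9%, 63.8% and 65.9% of these genes at 0, 6 and 9 dpa. With the replicate block, wnt11r at 6 dpa kept its log2 fold change of -0.84 without a call and fzd4 was called at 9 dpa. With 2 libraries per group and no counts, low genes such as wnt16 cannot be judged against counting error.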
